A study of Mus musculus with 7 samples.

Results

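DNA methylation was examined at 10 genes that mark microglia, the resident macrophages of the brain, in cultured mouse hippocampal neurons. The genes were Cx3cr1, Itgam, C1qa, C1qb, C1qc, Csf1r, Aif1, Tmem119, P2ry12 and Trem2, out of 21900 protein-coding genes in the RefSeq annotation of GRCm38.p6. Their regions were the active regions, that is the merged enriched intervals of all libraries, that overlapped a gene body or the 1 kb on either side of it. This gave 19 of the 133337 active regions of the series. The KCl libraries came from C57BL/6J hippocampal neurons taken from embryos at E18.5, grown for 11 days in vitro and exposed to 55 mM KCl for 4 h, which depolarises neurons (3 libraries). They were set against the same kind of culture left untreated (3 libraries). Both groups were grown with AraC, a drug that acts against dividing cells. DNA fragments carrying 5-methylcytosine (5mC) were pulled down with an antibody and sequenced (MeDIP-seq), and the comparison asks which methylation depends on neuronal activity. Separate cultures for each library are not stated, so the p-values cover the spread among the libraries at hand, part or all of which may be technical.

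Microglia arise from the yolk sac and not from the neural precursors that give rise to neurons and astrocytes, and neurons normally keep these genes silent. Methylation inside a gene body can accompany either transcription or silence, whereas methylation at a promoter usually accompanies silence. MeDIP recovers fragments with several methylated CpG sites, so a stretch with few CpG sites gives little signal even when each of them is methylated. A height pools the DNA of all cells in a culture. The share of microglia in these cultures was not measured, and methylation in neurons and in other cells cannot be told apart. RNA is not analysed here, so the regions say nothing on whether the genes were expressed.

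Of the 10 genes, 8 held at least 1 region and 4 held a region called in all 6 libraries. Among all protein-coding genes 65.3% held a region and 34.9% held one called in all 6 libraries. The 4 genes were C1qb, a chain of the complement starter C1q, Cx3cr1, the receptor for the neuronal chemokine fractalkine, Itgam, the integrin chain CD11b, and Csf1r, the receptor for the survival factors CSF1 and IL-34. Regions called in fewer libraries were the only ones at Tmem119, P2ry12, Trem2 and C1qc. C1qa, another C1q chain, and Aif1, which encodes the actin-binding protein Iba1, held none. Gene length moved with these numbers. Of protein-coding genes up to 3.5 kb long, 20.4% held a region, and C1qc did while C1qa did not. In the class above that and up to 10 kb the share was 50.5%, with 3 of the 4 members in it (C1qb, Tmem119 and Trem2, but not Aif1). The share was 70.8% from there to 30 kb, where Cx3cr1 and Csf1r lie, and 85.5% from 30 to 60 kb, where Itgam and P2ry12 lie. Per length, the members had 9.62 regions per 100 kb of gene window, against 6.49 for all protein-coding genes. The second value counts each region once but adds up all windows, also where genes overlap, so it is too low beside the first. The genes also differ in length, with a median of 6.37 kb for the members and 17.1 kb for all protein-coding genes.

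**Figure D1:**
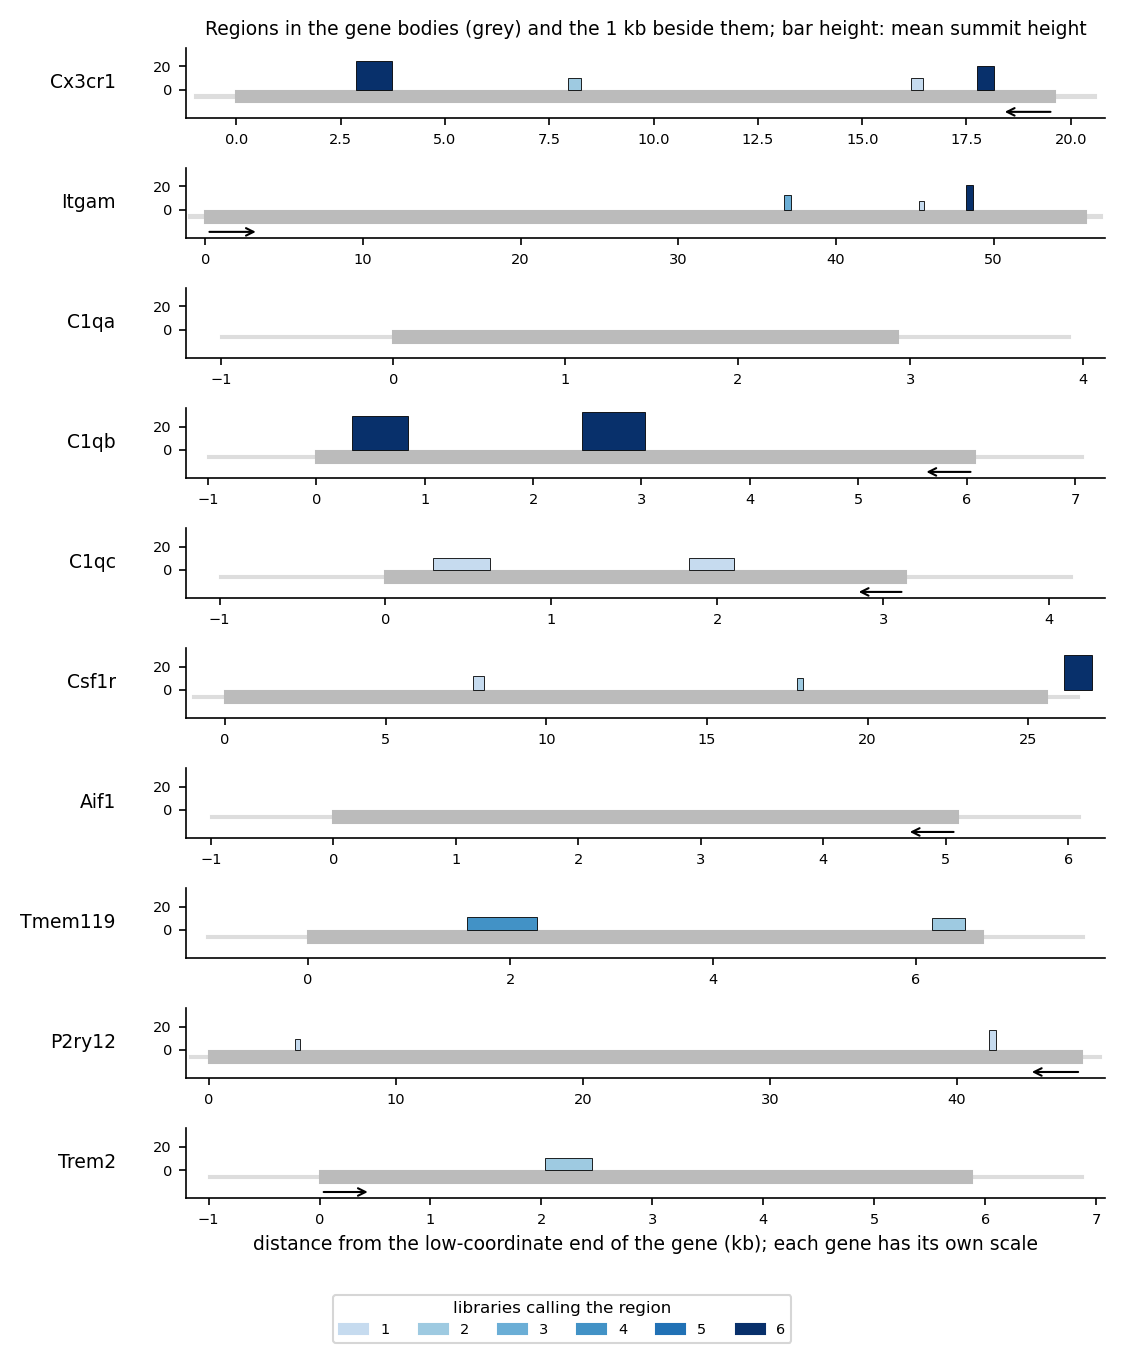
Regions at the 10 genes, drawn to scale along each gene (x axis, kb from the low-coordinate end of the gene; grey, gene body; thin line, the 1 kb beside it). Blue bars are regions, their height is the mean summit height in deposited units and their shade the number of libraries that called them; arrows mark the start and direction of genes whose strand was given. The 6 darkest regions lie in C1qb, Cx3cr1 and Itgam and beside Csf1r.

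Of the 19 regions 18 lay inside the gene bodies, and none at a known start. RefSeq start sites were matched for 7 members. Of their windows of 250 bases before the start, 0 of 7 overlapped a region, against 3.36% of 21263 such windows of protein-coding genes. No start was matched for C1qa, Csf1r and Tmem119, and regions at their starts were not examined. Tmem119 region 2 ends at 113800221, close to the gene end at 113800396, and whether the gene starts at that end was not checked. The nearest active region to the start, inside the gene or not, was 1012 bp away at C1qc and 1454 bp at Cx3cr1. It was 1731 bp away at Trem2, 2002 bp at P2ry12, 2127 bp at Itgam, 3044 bp at C1qb and 9265 bp at Aif1. These windows held few CpG sites. They had 1 site at Aif1, 2 at C1qc, 3 at P2ry12, 4 at Cx3cr1 and Trem2, and 6 at C1qb and Itgam, a median of 4 against 10 over all protein-coding windows. The motif searched was CG, which reads the same on both strands, and 93.4% of all windows hold it at least once. Windows with 5 to 9 sites overlapped a region most often (7.0%), those with 0 or 1 site in 1.40% and those with 20 or more in 1.84% of cases. A window without a region is thus the usual state in every CpG class, and it does not show that its CpG sites are unmethylated.

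The windows of 3 members are shown because they span this range and because their genes differ in regions: C1qb has the highest region of all members, Cx3cr1 has the most regions, and Aif1 has none. The sequences are RefSeq's, from GRCm38.p6, 250 bases before the start on the strand of the gene (minus for all 3), written 5′ to 3′ with each CpG site in capitals. They lie at chr4:136886201-136886450 for C1qb, chr9:120068297-120068546 for Cx3cr1 and chr17:35176053-35176302 for Aif1.
C1qb: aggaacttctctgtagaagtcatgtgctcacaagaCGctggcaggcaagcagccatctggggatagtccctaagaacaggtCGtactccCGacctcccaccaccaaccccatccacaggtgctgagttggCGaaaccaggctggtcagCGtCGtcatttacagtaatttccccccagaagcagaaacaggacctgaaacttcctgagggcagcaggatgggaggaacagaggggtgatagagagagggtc
Cx3cr1: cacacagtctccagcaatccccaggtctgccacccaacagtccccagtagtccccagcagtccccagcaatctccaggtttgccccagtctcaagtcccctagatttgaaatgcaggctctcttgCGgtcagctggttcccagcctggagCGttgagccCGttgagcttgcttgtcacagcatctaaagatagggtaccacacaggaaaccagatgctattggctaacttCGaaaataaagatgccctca
Aif1: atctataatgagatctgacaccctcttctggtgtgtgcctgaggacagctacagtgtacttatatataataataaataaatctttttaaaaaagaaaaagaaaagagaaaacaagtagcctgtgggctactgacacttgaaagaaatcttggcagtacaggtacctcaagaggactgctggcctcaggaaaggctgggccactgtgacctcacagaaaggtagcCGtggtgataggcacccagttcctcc
The single Aif1 site lies close to the matched start, at the right end of the line, whereas the stretch of the C1qb window nearest the start has none. The matched start of Aif1 lies inside the annotated gene, which reaches to 35176083. Its window therefore overlaps the gene body, and the single site falls in that overlap. The C1qc window, from 136892915, likewise overlaps its gene, which reaches to 136892936. In Cx3cr1, 3 of the 4 sites lie near each other in the middle of the window.

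The libraries differed in how much they called, also at the member regions. The KCl libraries held 93470, 60949 and 34834 intervals and called 12, 9 and 6 of the 19 member regions (63.2%, 47.4% and 31.6%). In the same KCl libraries the share of all active regions called was 69.4%, 45% and 25.7%. The untreated libraries held 87151, 87302 and 72947 intervals and called 11, 12 and 8 member regions (57.9%, 63.2% and 42.1%), against 64.3%, 64.7% and 53.9% of all active regions. KCl replicate 3 was lowest both at the members and over all regions. The depth in reads is unknown for every library, and no counting interval can be given.

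Of the 19 member regions, 6 were called in all 6 libraries (31.6%), against 20.5% of all active regions, and 7 in a single library (36.8%), against 29.3%. The 6 had a median height of 26.8, close to the 24 of all regions called in 6 libraries, and the 7 had a median of 10, against 11. Heights are the deposited summit heights, whole numbers of at least 6. The highest member region was at the 94.7th percentile of active regions by mean height, and the lowest at the 0.284th.

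**Figure D2:**
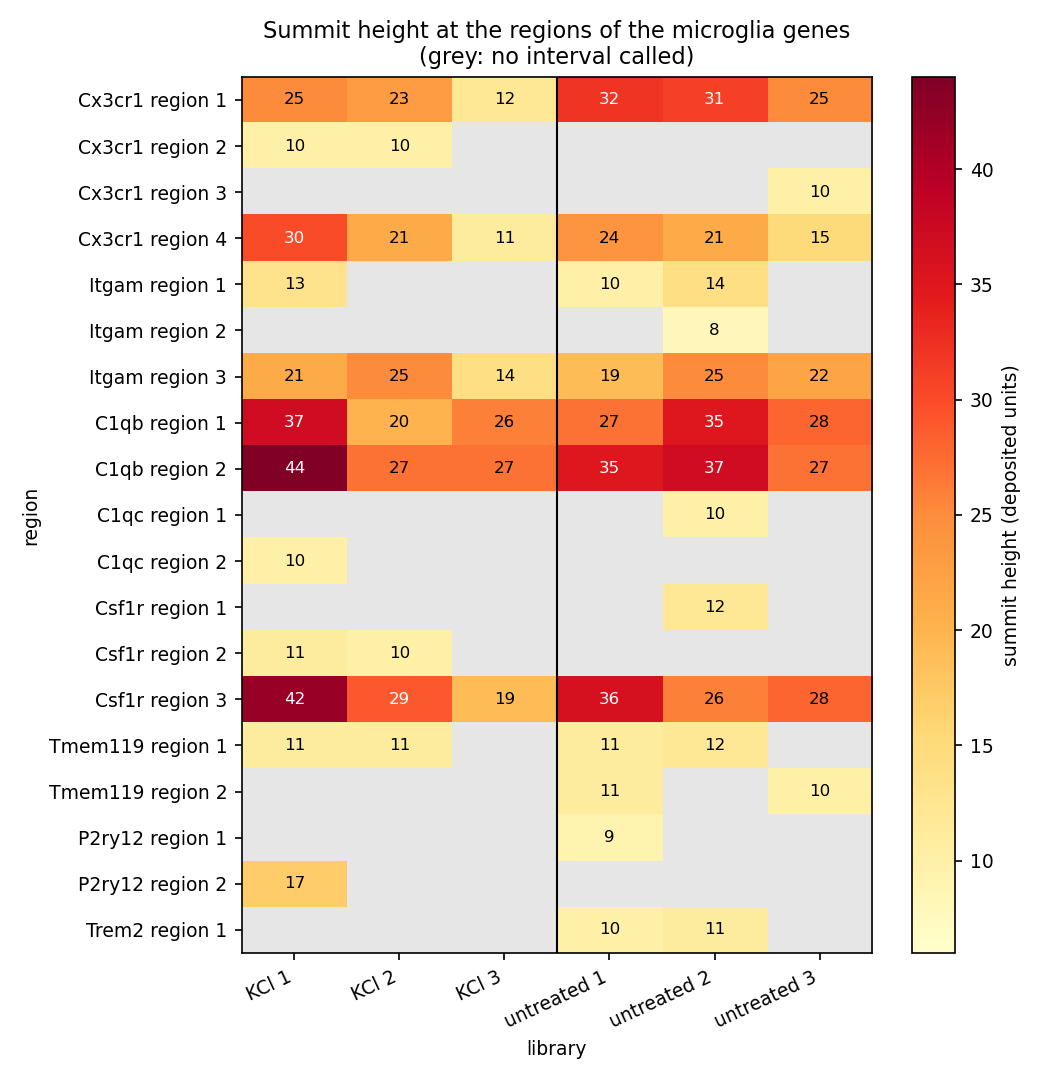
Summit height (deposited units, colour and number) of the 19 member regions (rows, numbered along each gene by coordinate) in the 3 KCl libraries (left of the line) and the 3 untreated libraries (right). Grey marks a library with no interval there; the 6 full rows are the regions called in every library.

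The C1q genes form a cluster on chromosome 4, and the regions called in every library lay in 1 of them. C1q is the recognition part of the classical complement pathway, which in the brain tags synapses that microglia remove. C1qb (chromosome 4, 136880126 to 136886200, minus strand) held 2 regions, both called in every library. Region 2 (136882581 to 136883156, 3044 bp downstream of the start) had heights of 44, 27 and 27 in the KCl libraries and of 35, 37 and 27 in the untreated libraries. The means were 32.7 ± 9.81 with KCl and 33.0 ± 5.29 untreated (SD, n = 3 each), and the groups overlapped, with KCl replicate 1 highest. Region 1 (136880456 to 136880968) begins 330 bp from the far end of the gene and had heights of 37, 20 and 26 with KCl against 27, 35 and 28 untreated. Its means were 27.7 ± 8.62 with KCl and 30.0 ± 4.36 untreated (SD, n = 3 each), again with overlap. C1qc (136889801 to 136892936, minus strand) held 2 regions of height 10, each in a single library. Its region 1 (136890090 to 136890433) was called in untreated replicate 2 and its region 2 (136891632 to 136891902) in KCl replicate 1. C1qa (136895916 to 136898844) held none. A region just outside its window, 1249 bp from the gene (136900093 to 136900501), was called in 5 libraries at a mean height of 16.8 ± 3.70 (SD).

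Among the receptors of neuronal and glial signals, Cx3cr1 had the most regions. The gene (chromosome 9, 120048683 to 120068296, minus strand) held 4, of which the outer 2 were called in every library. Region 1 (120051546 to 120052400, 855 bp wide) lies 15896 bp downstream of the start and had heights of 25, 23 and 12 with KCl against 32, 31 and 25 untreated. The means were 20 ± 7.0 with KCl and 29.3 ± 3.79 untreated (SD, n = 3 each). The groups met at a height of 25, the highest KCl value and the lowest untreated one. Within same-numbered libraries KCl was lower in 3 of 3 pairs, as at 18.4% of tested regions (10.5% after division by the median of each library). Region 4 (120066440 to 120066842), 1454 bp downstream of the start and also inside the long noncoding RNA gene Gm33858, had heights of 30, 21 and 11 with KCl against 24, 21 and 15 untreated. Its means were 20.7 ± 9.50 with KCl and 20 ± 4.58 untreated (SD, n = 3 each), and the KCl values enclosed the untreated ones. Region 2 (120056621 to 120056937) was called at a height of 10 in KCl replicates 1 and 2 and in 0 untreated libraries. Region 3 (120064846 to 120065144), which also lies in Gm33858, was called at 10 in untreated replicate 3 alone.

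Csf1r (chromosome 18, 61105572 to 61131139) held 2 low regions in its body and a high one beside it. Region 3 (61131676 to 61132551) starts 537 bp past the gene end and lies inside the neighbouring gene Hmgxb3, so it cannot be assigned to Csf1r alone. Its heights were 42, 29 and 19 with KCl against 36, 26 and 28 untreated. The means were 30.0 ± 11.5 with KCl and 30.0 ± 5.29 untreated (SD, n = 3 each), with the untreated values inside the KCl range. Region 2 (61123362 to 61123554), which overlaps the noncoding RNA gene Gm52352, had heights of 11 and 10 in KCl replicates 1 and 2 and was called in 0 untreated libraries. Region 1 (61113304 to 61113629) was called at 12 in untreated replicate 2 alone. Without the region in Hmgxb3, Csf1r would have no region called in all 6 libraries.

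Itgam (chromosome 7, 128062640 to 128118491, plus strand), the longest member at 55852 bp, had its 3 regions in the far part of the gene. Region 3 (128110914 to 128111338), 48274 bp downstream of the start, had heights of 21, 25 and 14 with KCl against 19, 25 and 22 untreated. Its means were 20 ± 5.57 with KCl and 22.0 ± 3.00 untreated (SD, n = 3 each), and the groups overlapped. Region 1 (128099379 to 128099793) was called at 13 in KCl replicate 1 and at 10 and 14 in untreated replicates 1 and 2. Region 2 (128107906 to 128108246), the lowest member region, had a height of 8 in untreated replicate 2 alone.

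The remaining members had no region called in all 6 libraries. Tmem119, a membrane protein used to tell microglia from other macrophages (chromosome 5, 113793729 to 113800396), had region 1 (113795298 to 113795994) at 11 and 11 in KCl replicates 1 and 2 and at 11 and 12 in untreated replicates 1 and 2. Its region 2 (113799896 to 113800221) was called in 0 KCl libraries and at 11 and 10 in untreated replicates 1 and 3. A higher region lay 1162 bp outside the gene (113792080 to 113792567), called in all 6 libraries at 34.0 ± 8.44 (SD), and so just missed the window. P2ry12, the ADP receptor through which microglial processes sense injury (chromosome 3, 59216271 to 59262985, minus strand), lies inside the larger gene Med12l. Its region 2 (59257985 to 59258396) was called in KCl replicate 1 alone, at a height of 17. Of the 11788 active regions called in that library alone, 3.67% were that high or higher, and their median was 11. Its region 1 (59220890 to 59221131) had a height of 9 in untreated replicate 1 alone. Outside the window, 2002 bp from P2ry12 and also in Med12l, a region (59264987 to 59265360) was called in 0 KCl libraries and at 14, 14 and 12 in the untreated libraries, a pattern shared by 1.01% of active regions. Trem2, a lipid receptor that signals through Tyrobp (chromosome 17, 48346401 to 48352276, plus strand), had 1 region (48348436 to 48348855), called in 0 KCl libraries and at 10 and 11 in untreated replicates 1 and 2. Outside its window, 3586 bp from the gene, a region (48342628 to 48342815) was called at 13 and 11 in KCl replicates 1 and 2 and in 0 untreated libraries. Another, 1731 bp away (48344347 to 48344670), had heights of 12, 11 and 11 with KCl against 12 and 12 in untreated replicates 2 and 3. Aif1 (chromosome 17, 35170986 to 35176083, minus strand) had no region, and the nearest lay 4325 bp from the gene (35166292 to 35166661), called in all 6 libraries at 14.2 ± 2.14 (SD).

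Some member regions were called in several libraries of 1 group and in none of the other. Cx3cr1 region 2 and Csf1r region 2 were called in 2 KCl and 0 untreated libraries, where 0.978% of all active regions were called in at least 2 KCl and 0 untreated libraries. Tmem119 region 2 and Trem2 region 1 were called in 2 untreated and 0 KCl libraries, where 5.62% of all active regions were called in at least 2 untreated and 0 KCl libraries. Of the 19, 0 were called in all 3 KCl and 0 untreated libraries (0.0367% of all active regions), and 0 in all 3 untreated and 0 KCl libraries (1.01%). C1qc region 2 and P2ry12 region 2 were called in KCl replicate 1 alone, as were 8.84% of all active regions. The 4 regions of the first 2 kinds were low, with a mean height of 10 at Cx3cr1 region 2 and 10.5 at the others, at the 9.59th and the 16.3th percentile of active regions. With each library held to its 34834 highest intervals, as many as KCl replicate 3 has, these 4 regions had no call. Their low heights fixed this outcome, so it is no separate check on their calls. The 6 of the 19 member regions that remained were those called in all libraries before. Of them, 5 kept a call in all 6 libraries, as untreated replicate 3 now called only 5.

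Ordered by mean height over the 6 libraries, the regions called in all of them ran from C1qb region 2 (32.8 ± 7.05) through Csf1r region 3 (30.0 ± 8.02), C1qb region 1 (28.8 ± 6.24), Cx3cr1 region 1 (24.7 ± 7.17) and Itgam region 3 (21.0 ± 4.15) to Cx3cr1 region 4 (20.3 ± 6.68; SD, n = 6 each). No neighbours in this order differed beyond their spread. The differences between neighbours averaged 2.83, 1.17, 4.17, 3.67 and 0.667, and the SDs of these differences over libraries were 5.42, 7.86, 7.68, 5.61 and 6.22. Some regions further apart in the order differed in the same direction in 6 of 6 libraries. C1qb region 2 was higher than Cx3cr1 region 1, Itgam region 3 and Cx3cr1 region 4 in each library. Csf1r region 3 was higher than Itgam region 3 and Cx3cr1 region 4 in each library.

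**Figure D3:**
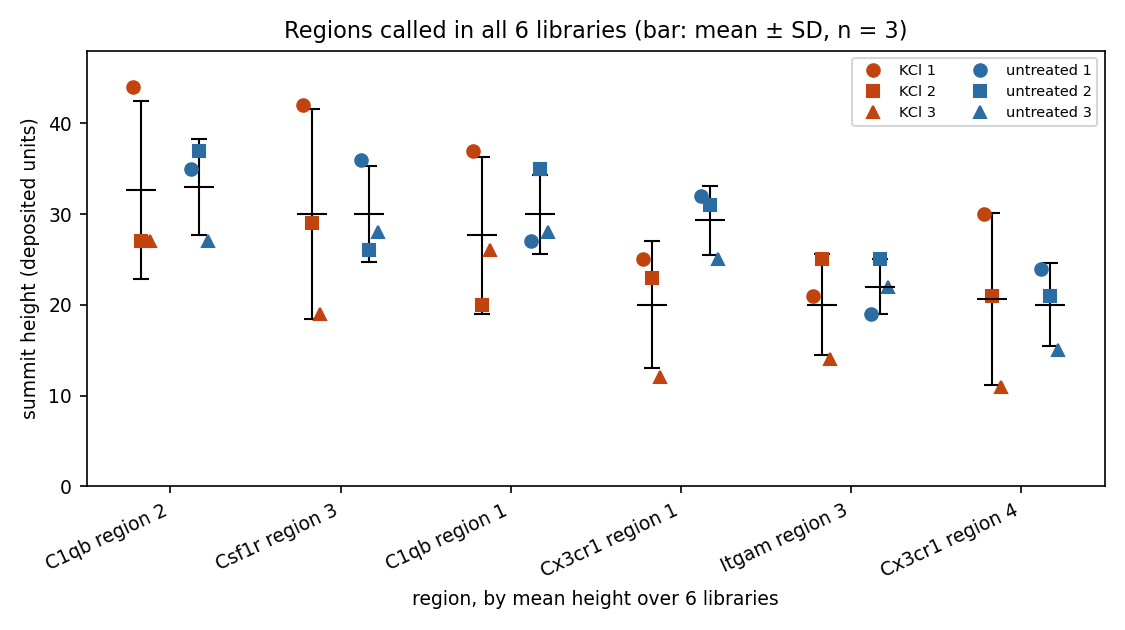
Summit heights (y axis, deposited units) of the 6 regions called in every library, with each KCl library in orange (left) and each untreated library in blue (right) and the mean ± SD (n = 3) in black. The groups overlap at C1qb, Csf1r, Itgam and Cx3cr1 region 4 and meet at 25 at Cx3cr1 region 1.

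No change with KCl at these regions passed the test. All 6 had a mean height above the limit for testing (18.7, the 25th percentile of regions called in all 6 libraries), and the other 13 member regions, which lacked a call in some library, were not tested. Heights were compared as log2(height + 1) with limma over 20537 regions, with Benjamini-Hochberg adjustment over all of them. The adjusted p lay between 0.932 and 0.984 for the 6. Of all tested regions, 0.0% were called higher and 0.0% called lower by limma at an adjusted p under 0.05. The lowest adjusted p of any was 0.932, and 1.12% had an unadjusted p under 0.05. The log2 change as deposited was below 0 at each of the 6, as it was at 90.6% of all tested regions. At none of the 6 did the KCl heights all lie below the untreated ones, or all above, which 4.14% and 0.0292% of tested regions showed. With heights divided by the median of their library, again none of the 6 did, against 3.3% and 5.02%. The median tested region lay at -0.25, and at -0.017 without KCl replicate 3 and -0.46 without KCl replicate 1. The changes below are therefore given relative to the median tested region, on the log2(height + 1) scale, which understates changes of low regions.

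Relative to the median region, 5 of the 6 were above 0 and 1 below, with a median of 0.15 against 0 over all tested regions, of which 50.0% lie above 0 by construction. Cx3cr1 region 4 was at 0.21 (limma SE 0.24, from heights centred on the library median, as for the others), C1qb region 2 at 0.21 (SE 0.19) and Csf1r region 3 at 0.19 (SE 0.20). C1qb region 1 was at 0.10 (SE 0.21) and Itgam region 3 at 0.088 (SE 0.23). Cx3cr1 region 1 was at -0.34 (SE 0.21), at the 4.24th percentile of tested regions, while Cx3cr1 region 4 was at the 87th. Its limma p was 0.102 unadjusted and 0.932 adjusted on heights as deposited, and 0.138 unadjusted and 1.00 adjusted after centring, where 3.45% of all tested regions reached an unadjusted p under 0.05. Leaving out each library in turn, its value lay between -0.45 and -0.26. Itgam region 3 was below 0 without KCl replicate 2 (-0.071) or untreated replicate 1 (-0.0078), and C1qb region 1 without KCl replicate 3 (-0.11). The other 3 stayed above 0 but moved by over 1.5 times. Cx3cr1 region 4 was at 0.11 without KCl replicate 1 and 0.36 without KCl replicate 3. C1qb region 2 was at 0.091 without KCl replicate 3 and 0.34 without KCl replicate 2. Csf1r region 3 was at 0.017 without untreated replicate 2 and 0.33 without untreated replicate 1.

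**Figure D4:**
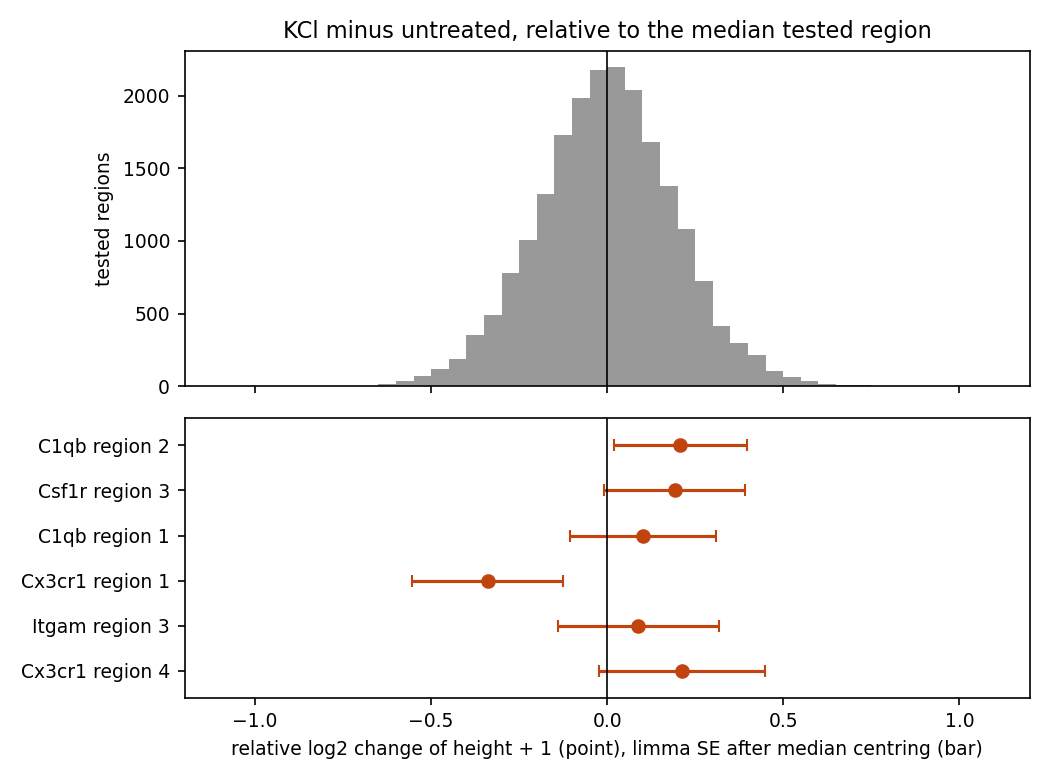
Upper panel: number of tested regions (y axis) by relative log2 change with KCl (x axis, log2(height + 1), KCl minus untreated, minus the median region), over 20537 regions. Lower panel: the 6 tested member regions (points) with the limma SE after median centring (bars); 5 lie above 0 and Cx3cr1 region 1 lies at -0.34.

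A ratio of 2 regions within a library is not altered by multiplying all heights of that library by 1 factor. At Cx3cr1 the height of region 1 over that of region 4 was 0.833, 1.10 and 1.09 in the KCl libraries and 1.33, 1.48 and 1.67 in the untreated libraries, so the groups did not overlap. On the log2 scale the ratios averaged -0.0021 ± 0.23 with KCl and 0.57 ± 0.16 untreated (SD, n = 3 each). They differed by -0.57, with p = 0.1 in a two-sided exact permutation test over all 6 libraries, the smallest it can give. Within same-numbered pairs the ratio was lower with KCl in 3 of 3, and exchange within pairs gave an exact permutation p of 0.25, again the smallest it can give. The same groups were apart for Cx3cr1 region 1 over Csf1r region 3, at 0.595, 0.793 and 0.632 with KCl against 0.889, 1.19 and 0.893 untreated (exact permutation p = 0.1, two-sided). Of the 15 pairs of the 6 regions these 2 did not overlap, both with Cx3cr1 region 1, and their p adjusted over the 15 pairs was 0.75. Among 5782 pairs of neighbouring tested regions in 1 protein-coding gene window, 9.2% did not overlap. That share stands beside pairs within a gene, such as Cx3cr1 regions 1 and 4. For pairs across genes, such as Cx3cr1 region 1 over Csf1r region 3, no share over all regions was computed. The pairs were compared after the heights had been seen.

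Other genes of the myeloid lineage held regions as well. Of 26 further microglia and myeloid genes, 22 (84.6%) held a region and 13 one called in all 6 libraries, against 8 and 4 of the 10 members. The shares over all protein-coding genes were 65.3% and 34.9%. Their median length was 19.3 kb, against 6.37 kb for the members. The highest were at the lineage transcription factor genes Irf8 (70.0, chromosome 8, 120753356 to 120753898) and Spi1 (42.0, chromosome 2, 91095730 to 91096257) and at the protease gene Ctss (35.2 over 5 libraries, chromosome 3, 95537102 to 95537611), as mean heights. Ctss had no call in KCl replicate 3, and Sall1, with 35.2 over 6 libraries, had 38.2 without that library, above Ctss. Irf8 averaged 66.3 ± 26.0 with KCl and 73.7 ± 11.9 untreated, and Spi1 39.3 ± 12.9 with KCl and 44.7 ± 3.51 untreated (SD, n = 3 each). The genes Gpr34, Ptprc, Fcer1g and Lyz2 held no region, like C1qa and Aif1. Of 7 genes for ligands and partners of the members, 7 held a region and 3 one called in all 6 libraries. These 3 were Apoe, which encodes a lipid carrier bound by TREM2 (79.2), Il34, which encodes a ligand of CSF1R (26.7), and Tgfb1 (19, in a region shared with B9d2), as mean heights. The genes for the other CSF1R ligand, Csf1, and for the CX3CR1 ligand, Cx3cl1, held 5 and 3 regions, of which 0 were called in all 6 libraries.

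Markers of other cell types held regions too. At least 1 region was held by 18 of 18 neuronal, 10 of 12 astrocyte, 10 of 12 oligodendrocyte lineage and 10 of 12 endothelial and mesenchymal genes. In the same order, 10, 4, 5 and 6 genes held a region called in all 6 libraries. Among all protein-coding genes 65.3% held a region and 34.9% one called in all 6 libraries. The neuronal genes were long, with a median of 50.7 kb. Per 100 kb of window the neuronal list had 7.18 regions, the astrocyte list 10.3, the oligodendrocyte list 13.4 and the endothelial and mesenchymal list 8.40, with 9.62 for the microglia genes inside that range. The single highest region of each of these 4 lists was above C1qb region 2, the highest of the microglia genes. By mean height the top 3 genes of each list were at Bcl11b (132), Rbfox3 (90.5) and Syt1 (64.5) for neurons, at Aldh1l1 (41.0), Gjb6 (32.8) and Glul (30.8) for astrocytes, at Mobp (120.5), Cspg4 (72.0) and Mbp (30.8) for the oligodendrocyte lineage, and at Cdh5 (60.8), Col1a1 (59.8) and Flt1 (33.3) for endothelial and mesenchymal cells. C1qb region 2, at 32.8, was as high as Gjb6 and above Glul and Mbp. The share of members with a region called in a library was 70%, 50% and 40% in the KCl libraries and 70%, 70% and 50% in the untreated libraries. All protein-coding genes had 58.1%, 50.7% and 39.3% with KCl and 56.4%, 58.1% and 53.0% untreated, with KCl replicate 3 again lowest.

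**Figure D5:**
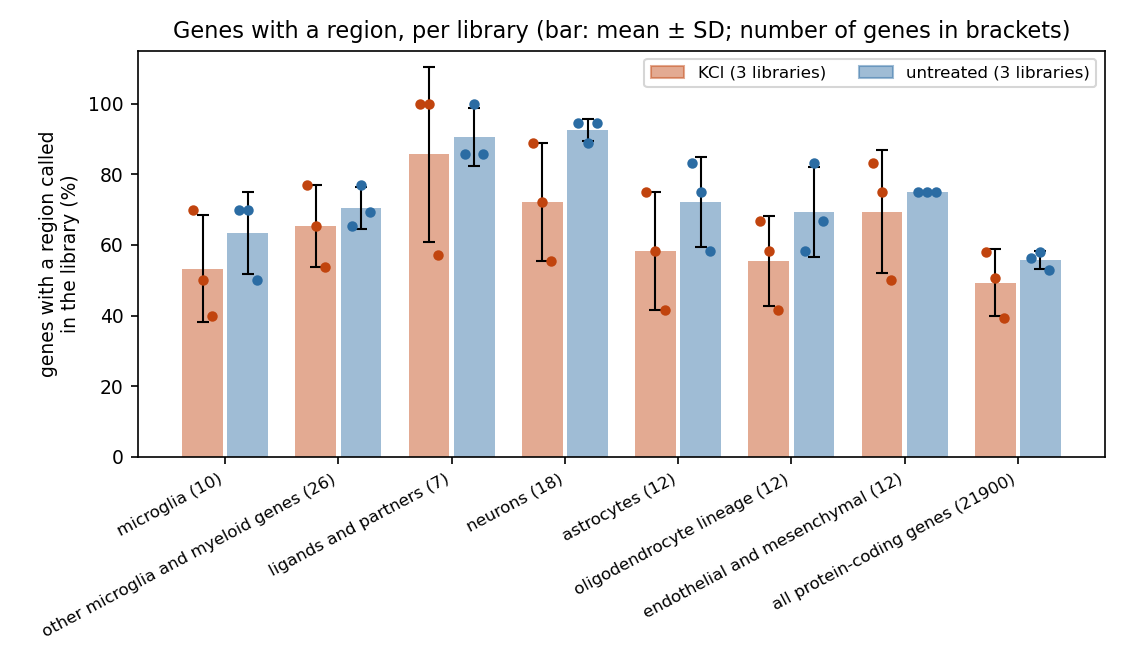
Share of the genes of each list (x axis, number of genes in brackets) that held a region called in a library (y axis, percent). Points are libraries, bars their mean and error bars the SD, with the KCl libraries left and the untreated libraries right; the microglia genes average 53.3% with KCl and 63.3% untreated, and all protein-coding genes 49.4% with KCl and 55.8% untreated.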

How the data were processed

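MeDIP-seq libraries of cultured hippocampal neurons were compared, 3 with KCl and 3 untreated; the pooled input was not analysed here. Per the labels' protocols a company made the libraries and ran the analysis; BWA, SICER and the mm10 build are named per the submitters' processing notes. Tool versions and settings are not stated. Per the file headers, the authors deposited, for each library, called intervals and a summit with a height (signal), and active regions over all libraries. Whether heights were scaled is not stated. Each active region took a library's highest summit. Genes came from RefSeq GRCm38.p6, which numbers its chromosomes as mm10 does. The gene table gives no exons, so exons, introns and UTRs were not assigned. Coordinates are 1-based.

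Regions called in all 6 libraries with a mean height of at least 18.7 were fitted as log2(height + 1) in limma 3.58.1 (R 4.3.3), with an intensity trend. Benjamini-Hochberg adjustment covered all regions tested, with a threshold of 0.05, two-sided. Simulated heights were run only through the fit with median centring, so they do not test the fit on heights as deposited. Lists and members were chosen with earlier results of these data known and are described by counts. All members and their regions are given; of each other list the 3 genes with the highest region are named. Genes of those lists named beyond this rule were chosen after their values were seen. Deviations of libraries with the same replicate number from their group means correlated at 0.113, 0.108 and 0.114 over tested regions, above the limit of 0.1 set for pairing. The labels do not say what the number marks. The main fit and its p-values leave this pairing out, and the block was run as an alternative. Alternatives changed the pseudocount, filter, centring, trend, summit, gene window and libraries used.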

Additional observations from a re-analysis of the deposited data

How the results depend on the processing

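With limma, 0 of the tested regions passed under the planned settings, members included: a pseudocount of 5, no filter, median centring, no intensity trend, the mean summit, calls in at least 2 libraries of each group, the replicate block with and without centring, and without single libraries. The replicate block gave 0 calls with a lowest adjusted p of 0.857, and 0.329 with centring, and it changed no call. At Cx3cr1 region 1 the limma p with the block was 0.0706 unadjusted and 0.857 adjusted as deposited. With centring added it was 0.129 unadjusted and 0.975 adjusted. At an unadjusted p under 0.05 as deposited, 0 regions were higher and 231 lower. Without KCl replicate 1 there were 4325 lower and a lowest adjusted p of 0.0842. Of 84 alternative values of the relative change at the 6 member regions, 81 kept their direction, but not all of them could have changed it. Centring, the replicate block and the fit without intensity trend leave the relative change at its main value by construction. The values that changed direction all came from leaving out 1 library. Over these fits Itgam region 3 ranged from -0.071 (-0.0078 without untreated replicate 1) to 0.25 and C1qb region 1 from -0.11 to 0.32. The number of member regions was 33 with windows of 5 kb, of which 11 were called in all 6 libraries, and 6 when each library kept an equal number of its highest intervals. Genes with a region numbered 4 when only regions called in all 6 libraries were counted. They also numbered 4 when only regions with a mean height of at least 18.7 were counted, the 25th percentile of regions called in all 6 libraries. The other counts stayed within 1.5 times, also without single libraries, where those of regions were added after seeing the data, as were the exchange within pairs (replicate block; p = 0.25 for both Cx3cr1 region 1 ratios, exact permutation) and the Sall1 comparison. The unknown depth limits what a missing call can show.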
